A study of Mus musculus with 23 samples.

Results

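The neutrophil receptor gene Cxcr2 and the genes of its chemokine ligands Cxcl1, Cxcl2, Cxcl3 and Cxcl5 were followed through 23 mouse lungs. They were taken by name as 5 of the 754 genes of a NanoString nCounter myeloid panel, which counts colour-coded probes bound to transcripts without amplification. All 5 were above the detection floor in 18 or 19 of the 23 lungs. Their accessions on the panel matched RefSeq entries of the same gene symbols.

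The study set lungs of mice given organic dust extract beside lungs of mice given saline (PBS), each after 14 instillations, in 2 genotypes and both sexes. Fat-1 mice carry a nematode fatty acid desaturase that makes omega-3 from omega-6 fatty acids, and wild-type (WT) mice do not. The labels used here do not state the promoter of the transgene, the strain background or the age of the mice. The airspaces had been lavaged before the left lobe was stored, so leukocytes that the lavage removed were not in the RNA. By the extract code there were 6 Fat-1 dust lungs (3 female, 3 male), 7 WT dust lungs (4 female, 3 male), 5 Fat-1 saline lungs (2 female, 3 male) and 5 WT saline lungs (2 female, 3 male). Extraction took place on 2 days. Day 1 held 8 dust and 4 saline lungs, and day 2 held 5 dust and 6 saline lungs, so the days were unevenly filled.

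CXCR2 is a G protein-coupled receptor on mature neutrophils. It binds chemokines of the ELR-positive CXC class and guides neutrophils along them out of the blood and into inflamed tissue. In the mouse lung CXCL1 (KC) and CXCL2 (MIP-2) come mainly from macrophages, endothelium and epithelium exposed to bacterial products, CXCL3 is a close relative of both, and CXCL5 (LIX) is made largely by the epithelium. Inhaled bacterial products in organic dusts are known to draw neutrophils into the airways.

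Cxcl1, Cxcl2, Cxcl3 and Cxcl5 lie in a cluster on mouse chromosome 5, where RefSeq (GRCm38.p6) orders the genes Cxcl5, Ppbp, Pf4, Cxcl3, Cxcl15, Cxcl1 and Cxcl2. Cxcr2 lies on chromosome 1 beside Cxcr1, the gene of the related receptor CXCR1. Promoters of 4 of the 5 members were found in the RefSeq table, and Cxcl5 had no entry. The 250 bases before the annotated start are shown for Cxcl1, Cxcl2 and Cxcl3, the ligands with an entry, which share a short element. Cxcl5 moved with these ligands in the data too, and whether it holds the element was not examined. Capitals mark the longest run of letters common to the 3 windows, GGGAATTTCCC, which has the form of an NF-kappa-B site. All 3 genes read on the plus strand (Cxcl1 chr5:90890995-90891244, Cxcl2 chr5:90903649-90903898, Cxcl3 chr5:90785851-90786100).
Cxcl1: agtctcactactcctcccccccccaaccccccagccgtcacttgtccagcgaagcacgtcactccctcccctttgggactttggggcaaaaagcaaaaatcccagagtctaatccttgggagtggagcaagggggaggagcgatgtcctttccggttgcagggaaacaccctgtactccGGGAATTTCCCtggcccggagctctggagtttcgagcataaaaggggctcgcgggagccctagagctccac
Cxcl2: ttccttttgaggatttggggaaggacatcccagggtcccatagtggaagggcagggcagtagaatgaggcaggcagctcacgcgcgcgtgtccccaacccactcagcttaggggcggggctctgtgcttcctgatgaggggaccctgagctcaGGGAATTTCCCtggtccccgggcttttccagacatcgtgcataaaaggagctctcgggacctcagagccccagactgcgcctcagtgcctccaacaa
Cxcl3: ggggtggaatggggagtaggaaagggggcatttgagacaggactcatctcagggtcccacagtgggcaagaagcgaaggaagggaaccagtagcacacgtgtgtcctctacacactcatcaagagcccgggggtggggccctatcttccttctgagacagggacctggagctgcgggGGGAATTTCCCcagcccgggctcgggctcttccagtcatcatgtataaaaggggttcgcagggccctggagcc
The run of 11 letters began 71 bases before the start in Cxcl1, 97 bases before it in Cxcl2 and 73 bases before it in Cxcl3. The next longest run common to the 3 windows had 8 letters. Searched on both strands, the 11 letters occurred in 14 of 32851 mouse promoter windows of that length (0.0426%). Of 572 panel genes with a promoter entry they occurred in 3 (0.524%), which are the ligands they were taken from, and not in Cxcr2 (chr1:74153744-74153993, plus strand). A match of letters describes the sequence and is not a measured binding site.

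The values are normalized counts, that is probe counts multiplied by a factor for each lung. Counts under 20 had been replaced by 20, and in lungs with a factor under 1 scaled values under 20 stood at 20 too. A lung at the floor could thus hide up to 19 counts times its factor, or a value of 20 where that product was lower. This hidden limit ran from 20 to 80.1 and was highest in saline lungs of day 1. Counts recovered above the floor summed to 110453 to 812429 per lung. Behind the members' values above the floor stood 20 to 1247 counts, at which counting error alone is 22.4% to 2.83% of the value. The labels' title, characteristics and extract code name 1 group for each of 19 lungs and conflict for 4. These were Fat-1 female saline lung 1 and Fat-1 male dust lung 1 of day 1, which are WT in title and characteristics, and Fat-1 male saline lung 2 and WT male saline lung 2 of day 2. The last of these is titled a WT female dust lung. It had all 4 ligands at the floor and Cxcr2 at 64.5, and its group was taken from the extract code and not from these values. The negative probes of WT female saline lung 1 of day 2 averaged 19.8 counts, against 4.0 to 13.6 in the other lungs. In Fat-1 female dust lung 2 of day 1 the ratio of positive controls B to C was 1.07, against 2.66 to 3.51 elsewhere. A saturation message stood in the headers of Fat-1 male dust lung 1 and WT male saline lung 1, both of day 2. Endothelial, epithelial, macrophage and fibroblast markers were all measured above the floor, as a lung lobe should hold. Each lung is a left lobe and so stands for 1 mouse.

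Cxcl3 separated dust from saline lungs most clearly. On day 1 it ran from 550 to 1529 in the 8 dust lungs (median 873), and it was at the floor in all 4 saline lungs. On day 2 the 5 dust lungs had 135, 157, 243, 823 and 1233, and the 6 saline lungs ran from 20 to 110 (median 70.3). Every dust lung was above every saline lung, hidden limits included, on both days and in both genotypes. No other member of the group did this, and it held for 2.95% of the 711 genes tested in the direction of higher in dust. The lowest dust lung (135, Fat-1 female lung 1 of day 2) was close to the highest saline lung (110, WT female lung 1 of day 2). Without that saline lung the highest saline value was 89.4.

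Cxcl3 averaged 790 ± 453 in dust lungs and 46.3 ± 35.2 in saline lungs (SD, n = 13 and 10). Its log2 fold change of 4.11 (SE 0.44, limma adjusted p = 5.13e-06) was the highest of the 711 genes. Fold changes are on the log2(value + 1) scale, which understates changes of low genes. The floor can understate or overstate them, since the value it hides may be lower or higher. With each floor value set to its hidden limit the log2 fold change was 3.50 and ranked second of 711.

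Cxcl2 followed Cxcl3 on day 1 and less so on day 2. The 8 dust lungs of day 1 had 201 to 588 (median 361), and the 4 saline lungs of that day were at the floor. On day 2 the dust lungs had 38.4, 52.6, 87.7, 202 and 340, against 20 to 80.8 (median 62.3) in saline lungs. All dust lungs lay above the saline lungs on day 1, and 3 of 5 did on day 2. Cxcl2 averaged 285 ± 162 in dust lungs and 41.0 ± 25.5 in saline lungs (SD, n = 13 and 10), a change in log2 of 2.68 (SE 0.46, limma adjusted p = 1.52e-04).

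Cxcl1 was the ligand most often seen in saline lungs. On day 1 it had 146 to 738 in dust lungs (median 282), against 20, 20, 20 and 88.6 in saline lungs. On day 2 it had 47.5, 53.5, 85.4, 192 and 492 in dust lungs, against 20 to 108 (median 91.6) in saline lungs. The day 1 groups did not overlap. On day 2 the 3 lowest dust lungs were below the saline median, and 2 of 5 dust lungs exceeded every saline lung. Cxcl1 averaged 276 ± 203 in dust lungs and 61.7 ± 38.7 in saline lungs (SD, n = 13 and 10), a change in log2 of 2.09 (SE 0.44, limma adjusted p = 7.67e-04).

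Cxcl5 had the lowest counts of the ligands. On day 1 it had 51.5 to 340 in dust lungs (median 115), and it was at the floor in the 4 saline lungs, where it could hide up to 80.1. On day 2 the dust lungs had 37.2, 37.2, 45.7, 97.1 and 298, against 20 to 44.7 (median 32.7) in saline lungs. The lowest day 1 dust lung (WT female lung 1) stood below the hidden limit of a saline lung, so overlap could not be judged there. On day 2, 3 of 5 dust lungs exceeded every saline lung. Cxcl5 averaged 126 ± 95.5 in dust lungs and 27.7 ± 9.56 in saline lungs (SD, n = 13 and 10), a change in log2 of 1.94 (SE 0.30, limma adjusted p = 7.60e-05). This size rests on the floor, since it was 1.33 with hidden limits and 0.58 with a floor of 84.3 in every lung, and it stayed under adjusted p = 0.05 in both.

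Cxcr2, the receptor, had 205 to 1137 in the day 1 dust lungs (median 667), against 20, 20, 20 and 38.5 in the day 1 saline lungs. On day 2 it had 20, 44.2, 116, 248 and 505 in dust lungs, against 25.9 to 120 (median 71.1) in saline lungs. The day 1 groups did not overlap, and on day 2 only 2 of 5 dust lungs exceeded every saline lung. The dust lung at the floor was WT female lung 2 of day 2. Cxcr2 averaged 463 ± 354 in dust lungs and 52.6 ± 33.9 in saline lungs (SD, n = 13 and 10), a change in log2 of 2.78 (SE 0.64, limma adjusted p = 0.00149). Cxcr1 was at the floor in all 23 lungs, where it could hide up to 44.9 in dust lungs and 80.1 in saline lungs. In a piece of lung, more neutrophils and more Cxcr2 RNA per neutrophil cannot be told apart, and the same holds for the ligands and their source cells.

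**Figure D1:**
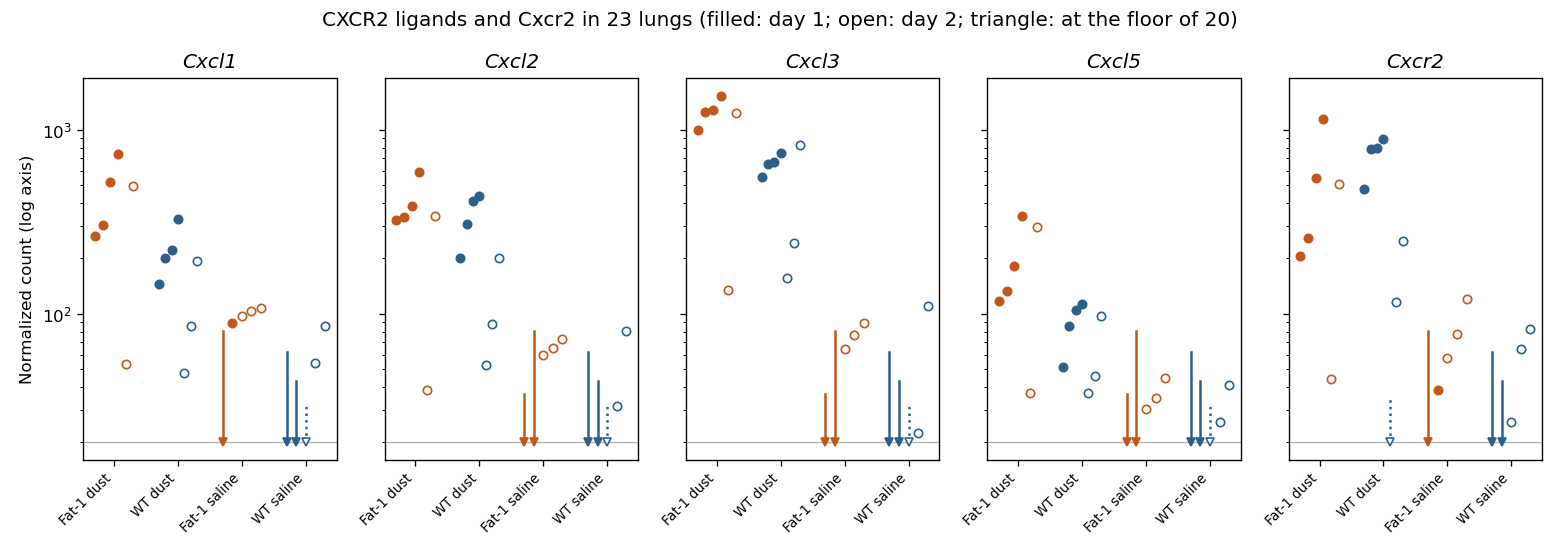
Normalized counts (log axis) of the 4 ligands and Cxcr2 in each of the 23 lungs, by genotype and exposure; filled symbols are day 1, open symbols day 2, triangles mark values at the floor of 20 and the line above a triangle reaches the most a hidden count could be. Cxcl3 in dust lungs is 135 or above throughout, while the other members of some day 2 dust lungs fall among the saline lungs.

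All 5 members were thus higher in dust than in saline lungs at an adjusted p under 0.05, where 43.3% of the 711 genes tested were higher by the same rule. Their median log2 fold change was 2.68, beside 0.26 over all genes. Scaling by housekeeping genes moved the all-gene median to 0.12 and the members to between 1.80 and 3.97, and centring on the median moved them to between 1.55 and 3.72, with all 5 still called. The scaling sets the split over all genes: 43.3% were higher and 9.99% lower as deposited, 35.7% and 16.2% with housekeeping scaling, and 28.4% and 34.3% with median centring. In WT lungs the log2 fold changes ran from 1.53 (Cxcl5) to 3.95 (Cxcl3), and in Fat-1 lungs from 2.00 (Cxcl1) to 4.27 (Cxcl3). All 5 members were called in each genotype, where 30.7% of genes in WT and 32.2% in Fat-1 lungs were called higher. Cxcl3 did not overlap between dust and saline lungs in either genotype, as held for 6.19% of genes in WT and 16.6% in Fat-1 lungs. Leaving out WT female saline lung 1 of day 1 left Cxcl3 alone called in WT, with limma adjusted p between 0.0514 and 0.0999 for the others and 117 genes called in either direction against 251. In Fat-1 lungs Cxcl2, Cxcl3 and Cxcl5 stayed called whichever single lung was left out. Cxcl1 and Cxcr2 were lost, at limma adjusted p up to 0.0653 and 0.11, without Fat-1 female dust lung 1 or 2 of day 1, Fat-1 female saline lung 1 of either day or Fat-1 male saline lung 1 of day 1. Cxcr2 alone was lost without any of 3 other Fat-1 lungs (male dust lung 2 of day 1, male dust lung 1 of day 2 and male saline lung 2 of day 2).

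The dust response was then taken within each extraction day. On day 1 all 5 members were called, with log2 fold changes of 3.31 (Cxcl1), 4.09 (Cxcl2), 5.43 (Cxcl3), 2.56 (Cxcl5) and 4.49 (Cxcr2), and 38.8% of genes were called higher. These p-values rest on saline lungs tied at the floor, which show no spread. With hidden limits in place of the floor the day 1 values were 2.16, 2.74, 4.07, 1.20 and 3.34 in the same order of genes, and all 5 were called beside 34.6% of genes. On day 2 only Cxcl3 was called, with a change in log2 of 2.73 (limma adjusted p = 0.0325), beside 16.2% of genes called higher. The other day 2 values were 0.83 for Cxcl1 (limma adjusted p = 0.392), 1.08 for Cxcl2 (0.242), 1.24 for Cxcl5 (0.118) and 0.78 for Cxcr2 (0.536). On day 1, 4 of the 5 members did not overlap between dust and saline lungs, beside 23.8% of genes in that direction, and on day 2 Cxcl3 alone, beside 5.34%.

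**Figure D2:**
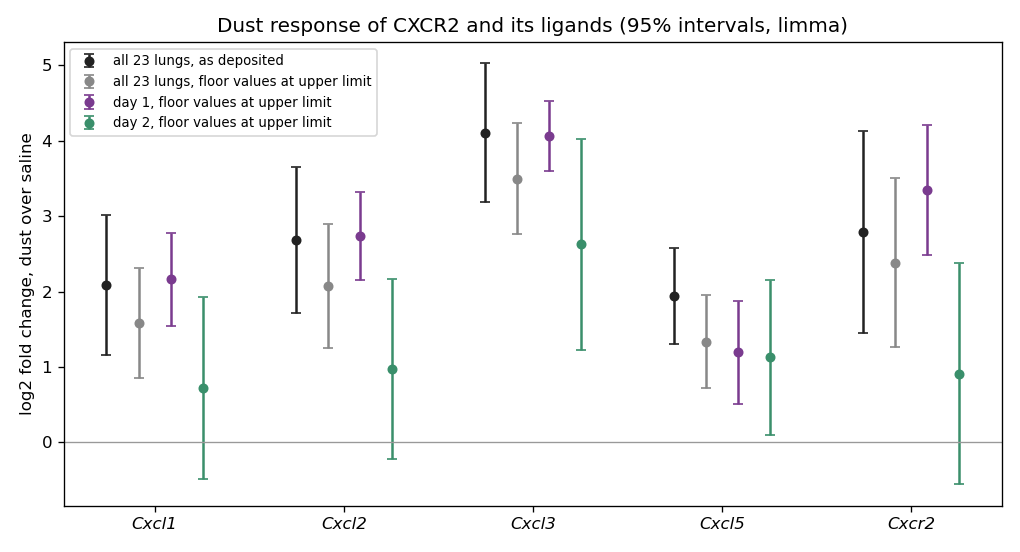
log2 fold change of dust over saline for each member with its 95% interval, in all 23 lungs as deposited, in all lungs with floor values at their upper limit, and within each extraction day at that limit. On day 2 the interval of Cxcl3 lies between 1.22 and 4.02, and those of Cxcl1, Cxcl2 and Cxcr2 include 0.

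The difference between the days was tested directly. The dust response was higher on day 1 than on day 2 by 2.95 log2 units for Cxcl2 (SE 0.63, limma adjusted p = 0.0176) and by 3.71 for Cxcr2 (SE 0.91, limma adjusted p = 0.0424), where 1.69% of genes were called. Cxcl1, Cxcl3 and Cxcl5 did not pass (limma adjusted p = 0.0912, 0.0625 and 0.215). With hidden limits in place of the floor the differences were 1.68 for Cxcl2 and 2.40 for Cxcr2, and no gene of 711 was called although 170 had an unadjusted p under 0.05. The day 1 saline lungs, which enter this difference, were at the floor for most members. The number of members called for the difference was 0 without Fat-1 male saline lung 1 of day 1 or without WT female saline lung 1 of day 2, 4 without WT male dust lung 1 of day 2 and 5 without Fat-1 male dust lung 1 of day 2. Without most of the other lungs it was 1 (Cxcl2).

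Among dust lungs alone, where the floor touched a single value, Cxcl2 and Cxcr2 were higher on day 1 than on day 2. Cxcl2 averaged 373 ± 113 on day 1 and 144 ± 127 on day 2 (SD, n = 8 and 5), a difference of 1.71 log2 units (SE 0.42, limma adjusted p = 0.0173). Cxcr2 averaged 636 ± 321 on day 1 and 187 ± 199 on day 2 (SD, n = 8 and 5), a difference of 2.33 log2 units (SE 0.60, limma adjusted p = 0.0191). The differences for Cxcl1 (1.26, limma adjusted p = 0.0735), Cxcl3 (1.28, 0.0633) and Cxcl5 (0.68, 0.212) did not pass. By the same rule 13.2% of genes were higher on day 1. No member separated the days without overlap, as 1.27% of genes did in that direction. Both male dust lungs of day 2 lay within the day 1 range of every member, Fat-1 male lung 1 (which has a saturation message) and WT male lung 1. The low day 2 values were those of the 3 female dust lungs, and whether the difference between days depended on sex was not tested. Without the 2 lungs with that message all 5 members passed. None passed once Fat-1 female dust lung 1 or WT female dust lung 2, both of day 2, was left out. Of 108 genes called in either direction, leaving out WT female dust lung 2 of day 2 left 12, and leaving out Fat-1 male dust lung 1 of day 2 gave 238. Day nearly followed the cartridge. Cartridge 2 held 10 lungs of day 1 and 2 of day 2, and cartridge 1 held 2 and 9. WT female and WT male dust lung 2 of day 1, on cartridge 1, had Cxcl2 of 436 and 407 and Cxcr2 of 886 and 785. WT female dust lung 2 of day 2, on cartridge 2, had 87.7 and 20. A fit with cartridge as a block is given among the alternatives below. Day and any change between the mice of either day cannot be told apart.

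The Fat-1 transgene was compared with WT among dust lungs, as the design asks whether it alters the response to dust. Over both days no gene of 711 was called (0.0%) by limma, and 22 had an unadjusted p under 0.05. The log2 differences of Fat-1 over WT were 0.94 for Cxcl1, 0.36 for Cxcl2, 0.78 for Cxcl3, 1.00 for Cxcl5 and -0.04 for Cxcr2. Cxcl5 was the member nearest to a difference. It averaged 184 ± 115 in Fat-1 dust lungs and 76.4 ± 30.9 in WT dust lungs (SD, n = 6 and 7), with an interval of 0.16 to 1.83 log2 units, an unadjusted p of 0.0224 and a limma adjusted p of 0.979. An exact permutation test of genotype within extraction day, two-sided, gave p = 0.0429 for Cxcl5, 0.08 for Cxcl1, 0.124 for Cxcl3, 0.411 for Cxcl2 and 0.931 for Cxcr2, before any correction for the 5 genes. With the genotype of the characteristics these were 0.0857 for Cxcl5, 0.113 for Cxcl1, 0.345 for Cxcl3, 0.607 for Cxcl2 and 0.773 for Cxcr2 by the same exact test.

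On day 1, which held 4 dust lungs of each genotype, Cxcl3 and Cxcl5 did not overlap. Cxcl3 was 1000, 1255, 1279 and 1529 in Fat-1 dust lungs, against 550, 651, 664 and 745 in WT dust lungs. Cxcl5 was 118, 132, 182 and 340 in Fat-1 dust lungs, against 51.5, 85.9, 105 and 113 in WT dust lungs. All 4 Fat-1 lungs exceeded all 4 WT lungs in both genes, narrowly for Cxcl5, and 2.95% of genes did so in that direction. These genes are singled out because they did not overlap, so no test of that order is given. Cxcr2 did not share this order, with 205, 258, 549 and 1137 in Fat-1 dust lungs, against 473, 785, 794 and 886 in WT dust lungs. By limma on the day 1 lungs alone Cxcl3 was higher in Fat-1 dust lungs by 0.95 log2 units (adjusted p = 0.0146), beside 0.422% of genes called higher. No other member was called by that fit, Cxcl5 included. The limma adjusted p of Cxcl3 was 0.0539 with hidden limits. That fit used the same dust lungs in which Cxcl3 was singled out, so it is not separate support.

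These day 1 values turn partly on Fat-1 male dust lung 1, which is WT in its title and characteristics. With the characteristics as the source it joins the WT lungs with 1279 for Cxcl3 and 132 for Cxcl5, and both genes overlapped. The limma difference of Cxcl3 on day 1 was then 0.74 log2 units (adjusted p = 0.609), and no gene of 711 was called, with 56 at an unadjusted p under 0.05. On day 2 the Fat-1 dust lungs had 135 and 1233 for Cxcl3, and the WT dust lungs had 157, 243 and 823. The Cxcl3 groups overlapped there, as those of Cxcl5 did. Whether the genotype difference itself changed between days was not tested.

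**Figure D3:**
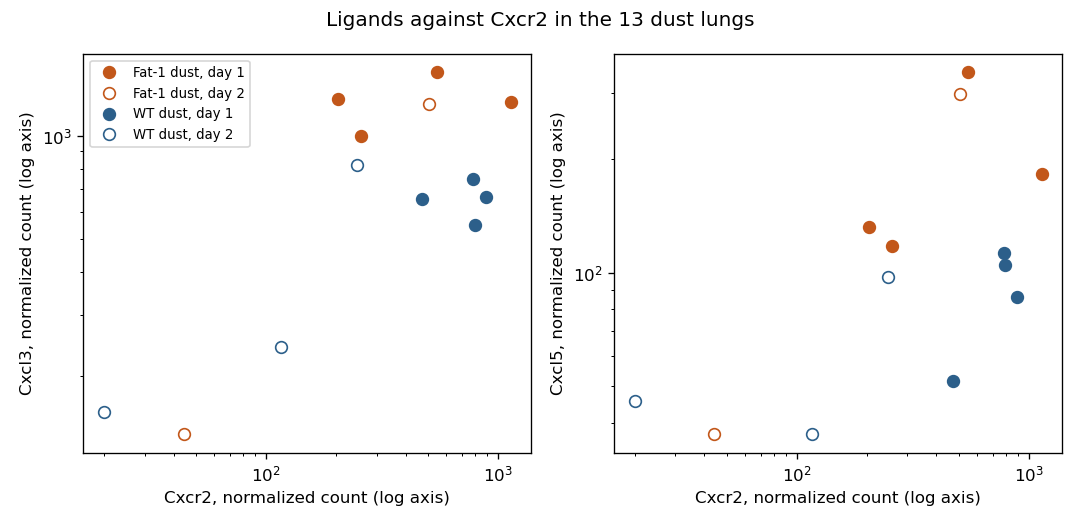
Cxcl3 (left) and Cxcl5 (right) against Cxcr2 in the 13 dust lungs, both as normalized counts on log axes; filled circles are day 1, open circles day 2, orange Fat-1 and blue WT. Day 1 Fat-1 lungs lie above day 1 WT lungs in both ligands at Cxcr2 values from 205 to 1137, and 3 of the 5 day 2 lungs are low in ligand and receptor alike.

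In saline lungs no gene was called between Fat-1 and WT (0.0% of 711, 10 with an unadjusted p under 0.05). The members' log2 differences there ran from 0.17 (Cxcl5) to 1.12 (Cxcl1), and Cxcl1 had 20, 88.6, 97.2, 103 and 108 in Fat-1 saline lungs, against 20, 20, 20, 53.9 and 86.1 in WT saline lungs. The difference of the dust response between Fat-1 and WT ran from -0.54 (Cxcr2) to 0.83 (Cxcl5), with an interval of -0.45 to 2.10 for Cxcl5. No gene was called for it (0.0% of 711 by limma, 21 with an unadjusted p under 0.05). These intervals span changes of several fold either way for Cxcr2 (-3.22 to 2.13), so equal responses are not shown.

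Sex was examined in the same way. The dust response of females minus that of males ran from -1.37 (Cxcl1) to -0.76 (Cxcl5), below 0 for all 5 members, and none passed. No gene of 711 was called (0.0% by limma, 14 with an unadjusted p under 0.05). The female values were spread widely: Cxcl3 ran from 135 to 1529 in the 7 female dust lungs (median 651), against 550 to 1279 in the 6 male dust lungs (median 911). The 3 female dust lungs of day 2 held the 3 lowest dust values of Cxcl3, and likewise of Cxcl1, Cxcl2, Cxcl5 and Cxcr2.

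Rank correlations among the members were taken over the 13 dust lungs. Spearman's rho between pairs of ligands ran from 0.75 (Cxcl2 with Cxcl3) to 0.95 (Cxcl1 with Cxcl5). With Cxcr2 it was 0.69 for Cxcl1, 0.77 for Cxcl2, 0.43 for Cxcl3 and 0.54 for Cxcl5. Within the 8 dust lungs of day 1, rho was 0.50 to 0.90 between ligands and -0.29 to 0.33 with Cxcr2. Within the 5 of day 2 both ran from 0.70 to 1.00, and no difference between correlations was tested. These points share libraries, scale factors and extraction days, and the rho of the members with the scale factor was -0.18 (Cxcr2) to 0.50 (Cxcl3).

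Of 552 genes above the floor in all 13 dust lungs, those most like Cxcr2 by Spearman's rho were Adam8 (0.97), a metalloproteinase gene of myeloid cells, Csf3r (0.97), the G-CSF receptor, and C5ar1 (0.97), the receptor of the complement fragment C5a. Csf3r and C5ar1 are receptors of neutrophils, as CXCR2 is. The genes most like the ligands were others. Cxcl1 ran with Ccl3 (0.93), a macrophage chemokine, with Socs3 (0.93), a brake on cytokine signalling, and with Malt1 (0.91). Cxcl2 ran with Rab20 (0.97), Ccl19 (0.90) and Il1b (0.88), the gene of interleukin 1 beta. Cxcl3 and Cxcl5 shared Maff, a small basic leucine zipper factor (0.96 and 0.92), Ccl17, a chemokine for T cells (0.92 and 0.89), and Socs3 (0.84 and 0.93).

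Genes that act around the CXCR2 axis were counted in lists. A list of signals upstream of CXCR2 ligands held cytokines, receptors, adaptors and NF-kappa-B factors with their inhibitors. Of its 17 tested genes 16 rose in dust lungs and none fell (median log2 fold change 0.84), while under median centring 12 were higher and Traf6, an adaptor, was lower, as Traf6 also was with housekeeping scaling. They included Tlr2 (1.82), a receptor for bacterial lipoproteins, Cd14 (2.15), the endotoxin co-receptor, Il1a (2.31) and Tnfaip3 (1.495), an inhibitor of NF-kappa-B signalling. On day 2 alone 5 of the 17 were called higher, beside 16.2% of genes.

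Of 17 tested neutrophil genes 12 rose and none fell (median 1.38). Under median centring 12 were higher and the granule genes Camp, Ctsg and Mpo were lower. Those that rose included Fpr2 (2.47) and Fpr1 (1.08), receptors of formylated peptides, Cybb (2.09), a subunit of the phagocyte oxidase, and Fcgr3 (1.85), an Fc receptor. Elane, neutrophil elastase, was at the floor in every lung. The summed level of the list was 11603 to 51030 in dust lungs of day 1, 4343 to 24823 in dust lungs of day 2 and 3188 to 5523 in saline lungs. It was thus lower on day 2 in the same direction as Cxcr2, and its part in the result was not tested.

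Among 12 other CXC chemokines and receptors tested, 9 rose and none fell (median 1.18), against 7 higher and Cxcr5 lower under median centring. Cxcl13, a chemokine for B cells, rose by 2.01 log2 units, Cxcl10, a ligand of CXCR3, by 2.39, Cxcl16 by 1.25, and Pf4, the neighbour of Cxcl3 on chromosome 5, by 1.36. Of 14 adhesion molecules of leukocyte exit, 7 rose and none fell (median 0.42), against 5 higher under median centring, where Cd47, F11r and Itgb1 were among those lower. Itgam (2.09) and Itgb2 (1.44) encode the chains of the Mac-1 integrin, Selplg (1.35) the selectin ligand PSGL-1, and Cd44 (0.89) was at the floor in 7 of 10 saline lungs. The list of CXCR2 signalling and desensitisation had only 4 of its 26 genes on the panel. All 4 rose, namely Vav1 (2.11), Rgs1 (1.67), Pik3cg (1.04) and Gnai3 (0.40), and under median centring 3 did. On day 2 alone Pik3cg and Vav1 were called higher, beside 16.2% of genes. The list medians stand beside 0.26 over all genes and 43.3% of genes called higher.

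**Figure D4:**
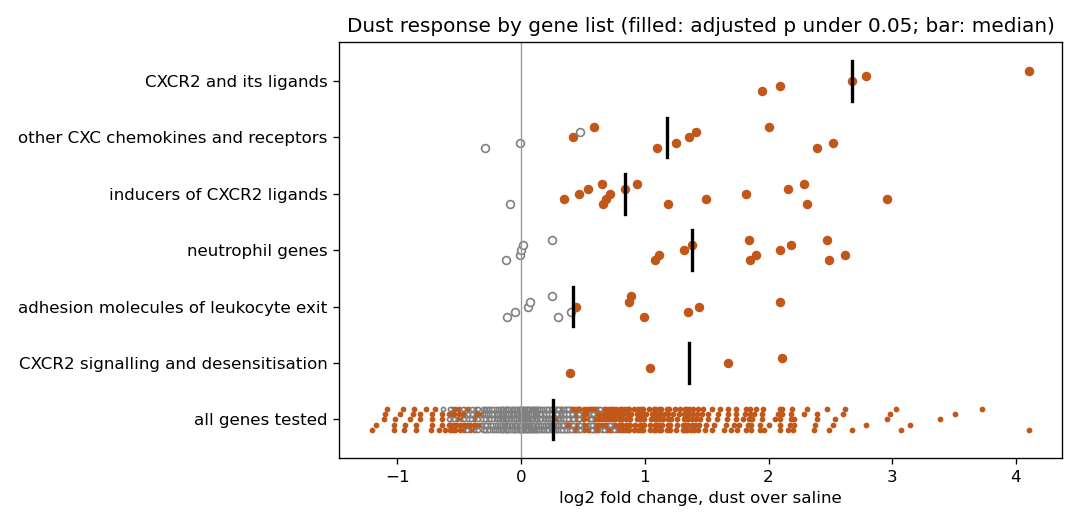
log2 fold change of dust over saline for each gene of the CXCR2 group, of 5 related lists and of all 711 genes tested; filled points have an adjusted p under 0.05 and the bar is the median. The CXCR2 group has the highest median (2.68), and Cxcl3 (4.11) is the rightmost of all genes.

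Markers of other cell types moved with the same exposure. Of the markers tested, 6 of 8 of alveolar macrophages, 11 of 12 of monocytes and interstitial macrophages and 4 of 6 of fibroblasts rose, beside 43.3% of all genes. None of these fell as deposited, but the fibroblast genes Pdgfra and Pdgfrb were lower with housekeeping scaling and median centring, and Ly6c1 was lower with median centring. All 4 endothelial markers fell under each of the 3 scalings, beside 9.99% of genes lower as deposited. The summed endothelial level was 1943 to 7922 in dust lungs and 7238 to 9888 in saline lungs. The summed monocyte and interstitial macrophage level was 8747 to 24101 in dust lungs and 7682 to 10615 in saline lungs. Of 2 epithelial markers Lamp3 was called higher as deposited and under neither other scaling, and Cdh1 was lower with median centring. Gzma fell among 3 markers of T, B and NK cells, and Nkg7 was lower too with median centring. Of 7 mast cell, eosinophil and basophil markers 1 rose (Siglecf, also counted among the alveolar macrophage markers) and 1 fell (Gata2) as deposited. With median centring none of them was higher, and Fcer1a, Gata2 and Kit were lower. The part of these shifts in the members' values was not tested.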

How the data were processed

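Total RNA of 23 left lungs was counted on a NanoString mouse myeloid panel. The deposited values are a signal: probe counts multiplied by a factor per lung (0.682 to 4.21) by the authors. Counts under 20, and scaled values under 20, were set to 20, as read from the values. Of the values above the floor 100.0% were whole steps within 0.1 steps. The 14 control-probe entries were deposited as raw counts. The labels and headers used here name no normalization genes, software or genome build (not given in the sources used here). Because low counts were hidden, no count model was fitted. Members and lists were chosen with earlier results of these data known.

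Groups came from the extract code. limma (version 3.58.1, R 4.3.3) was fitted to log2(value + 1) for 8 groups of genotype, sex and exposure over 711 genes above the floor in at least 1 lung, with Benjamini-Hochberg adjustment over all of them and a threshold of 0.05. Day effects came from a fit of exposure by day with genotype and sex. The contrast of days among dust lungs, the day 1 fit with groups from the characteristics and the exact permutation tests were chosen after seeing the data. The fit was tested on simulated data. Named genes were the members, up to 4 genes per list with the smallest p in dust against saline, and the 3 genes with the highest rho to each member. Genes whose direction turned under another scaling, and markers, were named after their values were seen. Replicate numbers did not pair lungs (median correlation of same-numbered lungs of a day -0.01 over 65 pairs).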

Additional observations from a re-analysis of the deposited data

Results flagged for a closer look

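The dust response differed between the extraction days for Cxcl2 (day 1 minus day 2, 2.95 log2 units) and Cxcr2 (3.71 log2 units), by the test of that difference. The call was lost under 6 of 39 alternatives for Cxcl2 and under 24 of 39 for Cxcr2. With hidden limits in place of the floor no gene of 711 was called.

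Within groups of 4 to 8 lungs, 8 values stood apart from their group by Dixon's criterion, out of 37 pairs of a gene and a group examined. The groups share lungs, which were grouped by genotype and again by day. Chance gives about 1 in 20 where values are measured, but 6 of the 8 lie in saline groups with 1 or more lungs at the floor, where the gap is set by the floor and that rate does not apply. Among the measured dust lungs Cxcl5 stood apart in Fat-1 female dust lung 1 of day 1 (340, the next at 182) and in Fat-1 male dust lung 1 of day 2 (298, the next at 97.1).

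Of the saline values, WT female saline lung 1 of day 2, whose negative probes were also high, was the highest of the 5 WT saline lungs for Cxcl2 (80.8), Cxcl3 (110) and Cxcl5 (40.8). Its Cxcl2 and Cxcl3 were above the highest hidden limit of the other WT saline lungs (61.6), and its Cxcl5 was not. Fat-1 female saline lung 1 of day 1, which is WT in its title and characteristics, was the single day 1 saline lung above the floor for Cxcl1 (88.6) and Cxcr2 (38.5). The hidden limits of the other 3 lungs were 80.1, 61.6 and 43.1, so its Cxcr2 cannot be placed above them. Fat-1 male saline lung 1 of day 1, the lung with the highest factor, was at the floor of 20 for Cxcl1, with a hidden limit of 80.1, while the other 4 Fat-1 saline lungs had 88.6 or more.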

How the results depend on the processing

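In dust against saline, Cxcl3 was called under all 45 alternatives (log2 fold changes 2.62 to 5.52), and the other 4 members under 43 of 45 each; on day 2 alone 1 of 5 members was called, with or without hidden limits (1). In WT the number called was 3 with a common floor and 0 on day 2 alone (0 with hidden limits), and 1 to 5 leaving out lungs. In Fat-1 it was 0 on day 2 alone (0 with hidden limits), 3 with groups from the characteristics, 2 without the 4 lungs whose labels differ, 3 without the 2 lungs in doubt (Fat-1 female dust lung 2 of day 1 and WT female saline lung 1 of day 2), 3 without those with a saturation message, and 3 to 5 leaving out lungs. Fat-1 against WT in dust called 1 member on day 1 alone and 1 with array weights, and 0 to 1 leaving out lungs. The day difference of the dust response called 1 member with a pseudocount of 20, without a filter and with cartridge as a block, 0 with a common floor, with hidden limits, without the 2 lungs in doubt and without those and WT female dust lung 2 of day 2, 5 with array weights and without the saturation lungs, and 0 to 5 leaving out lungs. Day 1 against day 2 in dust called 4 with a common floor, with hidden limits and with cartridge as a block, 5 with array weights and without the saturation lungs, 0 without those 3 lungs, and 0 to 5 leaving out lungs. The cause of these changes was not tested.

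Some values changed sign. Cxcr2 in Fat-1 against WT in dust was 0.0068 with housekeeping scaling, 0.83 on day 2 alone (0.58 with hidden limits), 0.035 with cartridge as a block, 0.016 with the replicate block, 0.27 with groups from the characteristics, 0.10 without the 4 lungs, 0.074 without sex, and -0.55 to 0.65 leaving out lungs (positive at 0.014, 0.097, 0.098, 0.10, 0.19, 0.35 and 0.65); Cxcl2 there ran from -0.015 to 0.96 leaving out lungs. Cxcr2 in Fat-1 minus WT in the dust response was 0.20 on day 2 alone, 0.27 on day 1 alone with groups from the characteristics and -1.06 to 0.15 leaving out lungs. Cd44 was -0.14 on day 1 alone with hidden limits, and Cxcl5 was -0.0014 in the day difference with hidden limits. With the replicate block 5 members were called in dust against saline and in WT and 4 in Fat-1, 352 genes against 379 in all.

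Counts of called genes moved by over 1.5 times on day 2 alone (132 against 379 in dust against saline) and with array weights (97 against 0 for Fat-1 against WT in dust, 328 against 108 between days in dust). Leaving out single lungs, the count ran from 117 to 307 in WT (251 with all lungs), 164 to 336 in Fat-1 (271), 4 to 145 for the day difference (12) and 12 to 238 between days in dust. Over the other alternatives these ran from 0 to 388, 33 to 378, 0 to 144 and 12 to 328. The lungs behind the lowest counts were WT female saline lung 1 of day 1, Fat-1 female saline lung 1 of day 2, Fat-1 male saline lung 1 of day 1 and WT female dust lung 2 of day 2. In saline, 4 or 5 lungs per ligand were at the floor, and the part of depth in this was not tested. The saturation lungs, the day 1 fit with groups from the characteristics, the day fits with hidden limits and the contrast of days in dust were chosen after seeing the data.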
